A study of Mus musculus with 4 samples.

Results

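Intergenic CTCF-cohesin sites were the places between genes where peaks of RAD21, a subunit of the cohesin ring, overlapped peaks of CTCF in mouse embryonic stem cells. A site was an autosomal RAD21 peak that overlapped a CTCF peak by at least 1 bp and no H3K4me3 peak, with its midpoint outside every protein-coding or lncRNA gene and more than 1 kb from the ends of each such gene. The rule held for 14661 of 74004 autosomal RAD21 peaks, or 19.8%, and the whole RAD21 list had 76021 peaks. These numbers, the presence of CTCF and the absence of H3K4me3 follow from the rule and are descriptions. Against the sites stand 19810 intragenic CTCF-cohesin sites and 3855 at gene ends, chosen by the same overlaps but by another position, and 12164 intergenic RAD21 peaks that overlapped neither CTCF nor H3K4me3.

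ChIP-exo, in which an exonuclease trims immunoprecipitated DNA towards the crosslinked protein, was done on Bruce-4 cells, a C57BL/6J embryonic stem cell line kept in serum, 2i and LIF. The study made 1 library for RAD21, 2 for CTCF and 1 for H3K4me3, each from 10000000 cells fixed in 1% formaldehyde for 10 min. All cells had the same genotype and medium, so the design held no treatment to compare. A single list of positions per antibody was analysed here, and the CTCF list is a union by its name. Depth and peak height were unknown, and no list had a replicate. Shares are therefore given with Wilson 95% intervals for the counting error alone, and differences carry the SD over the 19 autosomes, which are not replicates of the experiment. No p-value was computed.

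CTCF is a zinc finger protein that binds an asymmetric DNA motif. Cohesin enlarges chromatin loops along the fibre until it meets CTCF bound in a facing orientation, so that bound motifs become loop anchors and borders of contact domains. Sites between genes are known as insulators that limit which promoters an enhancer can reach. Sequence of the sites and the motif within them were not analysed here.

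The RAD21 peaks next to the 1 kb limit varied in length on both sides of it. Just inside were a 262 bp RAD21 peak whose midpoint lay 1001 bp from a gene end, between Slc2a10, a glucose transporter gene, and Eya2, and a 115 bp peak 1002 bp away between Osbpl11 and Snx4. Just outside were a 213 bp RAD21 peak 1000 bp from a gene end, between Gm28802 and Trak2, and a 373 bp peak 999 bp away between Cript and Gm30421. The 1 bp minimum of overlap mattered little. The median overlap of a site with its CTCF peak was 97 bp, and 22 sites (0.150%) overlapped by 10 bp or less. Of the intergenic RAD21 peaks without CTCF, 90 (0.740%) had a CTCF peak 100 bp away or nearer.

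RAD21 peaks were longer between genes than inside them when both carried CTCF. The median was 194 bp at intergenic sites (quartiles 126 and 293 bp), against 173 bp at intragenic sites (117 and 273 bp) and 172 bp at gene ends. The difference of chromosome medians, intergenic minus intragenic, averaged 19.4 bp ± 8.48 (SD, n = 19 autosomes) and was above 0 on 19 of 19. Against gene ends it averaged 18.7 bp ± 9.60 and was above 0 on 18 of 19. Chromosome medians of the sites lay between 179 bp on chromosome 12 and 212 bp on chromosome 18. Intergenic peaks over 500 bp numbered 461, or 3.14% (95% interval 2.87 to 3.44%), against 2.24% (2.04 to 2.45%) inside genes. At 71 bp, the shortest length in the list, were 306 sites, or 2.09% (1.87 to 2.33%), against 2.99% (2.77 to 3.24%) of intragenic sites and 35.6% of intergenic RAD21 peaks without CTCF. That last comparison crosses the CTCF rule, and so does the median of 91 bp in those peaks.

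CTCF peaks, and RAD21 peaks without CTCF, differed between the same positions by less than their SD over chromosomes. CTCF peaks had a median of 114 bp at intergenic sites and 116 bp at intragenic sites, a mean difference of -2.55 bp ± 6.19 (SD, n = 19) that was above 0 on 7 of 19 autosomes. RAD21 peaks without CTCF had medians of 91 bp between genes and 90 bp inside them, differing by 1.03 bp ± 4.12 and above 0 on 12 of 19. Subtracting this difference from the difference in RAD21 length with CTCF left 18.3 bp ± 8.29, above 0 on 19 of 19. The peaks without CTCF lie near the shortest length, with 35.6% of the intergenic ones at 71 bp. Their medians thus had little room to differ, and the subtraction crosses the CTCF rule, so it does not tie the difference to CTCF. Sites with 1 CTCF peak were also grouped by the length of that peak, in 5 groups divided at 49, 85, 132 and 203 bp. RAD21 medians from the shortest to the longest CTCF were 119, 149, 198, 222 and 271.5 bp at intergenic sites, against 111, 140, 177, 192 and 245 bp at intragenic sites. The mean differences in the same order were 6.76 bp ± 7.35, 9.29 bp ± 9.48, 21.2 bp ± 12.9, 30.5 bp ± 19.4 and 25.6 bp ± 15.0. The difference was above 0 on 16, 17, 19, 18 and 19 of 19 autosomes in that order. In the 2 groups with the shortest CTCF peaks the mean difference was below its SD, which is the spread of single chromosomes, and in the other 3 it was above. Gene ends differed in the other protein, with CTCF peaks of 114 bp at intergenic sites and 135 bp at gene ends, a mean difference of -20.2 bp ± 9.72 that was above 0 on 0 of 19 autosomes.

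**Figure D1:**
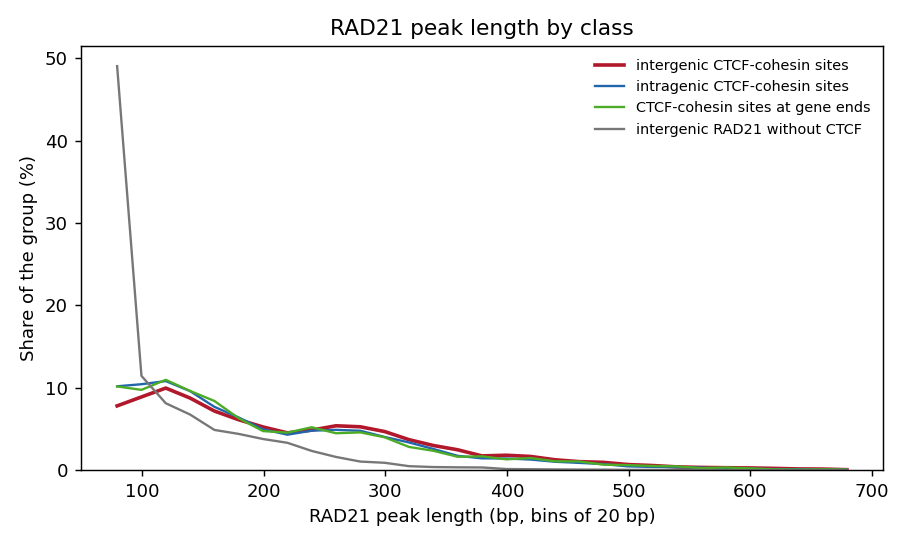
Share of each group (y axis, percent) by RAD21 peak length in bins of 20 bp (x axis, bp), with a line for intergenic CTCF-cohesin sites, intragenic sites, sites at gene ends and intergenic RAD21 peaks without CTCF. The line of the intergenic sites has a main hump at 110 to 129 bp, a dip at 210 to 229 bp and a lower second hump at 250 to 269 bp, while the peaks without CTCF crowd at the shortest lengths.

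Lengths of the sites fell into a main and a minor group. The bin of 110 to 129 bp held the most sites, 1462 or 9.97%. The share then dropped to 4.54% at 210 to 229 bp and came back to 5.40% at 250 to 269 bp. The 2 position classes differed at the extremes of this distribution. Lengths of 71 to 129 bp made up 26.7% of intergenic and 31.4% of intragenic sites. Lengths of 310 bp and more made up 21.2% of intergenic and 17.1% of intragenic sites. The plot of shares by length shows the dip for intergenic and intragenic sites. At gene ends the shares were 4.57% at 210 to 229 bp, 5.21% at 230 to 249 bp and 4.49% at 250 to 269 bp, without a clear second hump.

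CTCF lay close to the middle of the RAD21 peak. The distance between the midpoints had a median of 32 bp at intergenic sites (quartiles 13 and 65 bp), and medians of 32 bp at intragenic sites and at gene ends. At 8724 sites (59.5%, 95% interval 58.7 to 60.3%) the CTCF peak lay wholly inside the RAD21 peak, against 54.2% (53.5 to 54.9%) of intragenic sites and 47.3% (45.8 to 48.9%) at gene ends. The reverse, RAD21 wholly inside CTCF, held for 5.59% of intergenic sites, 7.69% of intragenic sites and 10.6% at gene ends. A longer RAD21 peak widens the first share by construction. CTCF sat on either side of the RAD21 midpoint equally. At sites with 1 CTCF peak the longer stretch of RAD21 pointed to higher coordinates in 7336 and to lower coordinates in 7199, or 50.2% (49.4 to 51.0%) to higher coordinates.

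The place of CTCF within the RAD21 peak was compared between 5 groups of similar size by RAD21 length. As a share of RAD21 length, the distance between the midpoints had medians of 16.2, 15.0, 16.7, 20.5 and 15.8% from the shortest to the longest group, so the fourth group stood apart. The longer of the 2 overhangs of RAD21 past the CTCF edges had medians of 26, 38, 65, 126 and 178 bp, and the shorter had -3, 2, 5, 16 and 39 bp, where a negative value means that RAD21 ended inside the CTCF peak. Their order is fixed by definition. In the fourth group, of 2936 sites with RAD21 peaks of 237 to 316 bp, the midpoint distances had a hump on each side and a shallow trough at 0. There 314 sites (10.7%) had CTCF 60 to 80 bp below the RAD21 midpoint and 312 (10.6%) had it 60 to 80 bp above, against 239 (8.14%) at 0 to 20 bp above. This group spans the second hump of the length distribution. In the group of 317 to 1005 bp the distances had no such trough. Without the motif, the side of CTCF to which RAD21 extended could not be tied to its orientation here.

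**Figure D2:**
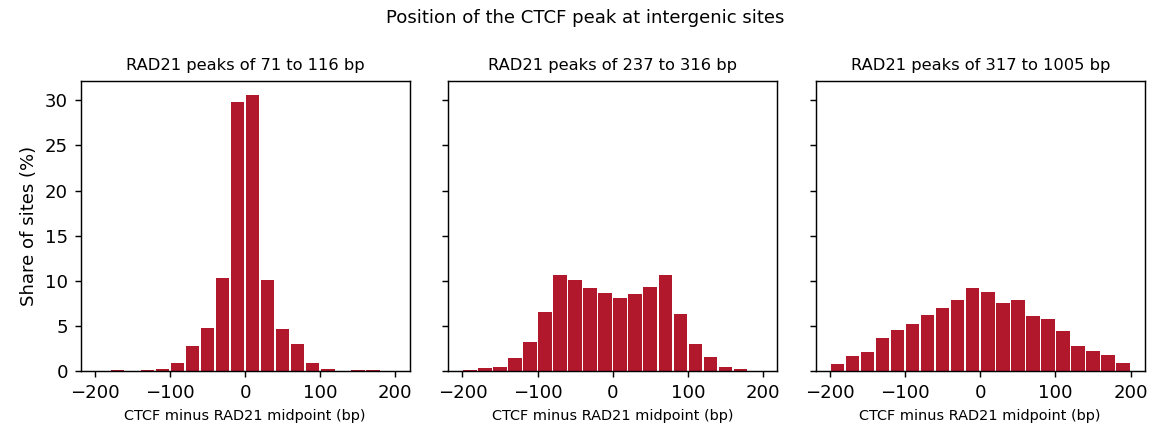
Distance from the RAD21 midpoint to the CTCF midpoint (x axis, bp, negative towards lower coordinates) against the share of sites (y axis, percent), in 3 panels by RAD21 length, for intergenic sites with 1 CTCF peak. The middle panel, 237 to 316 bp, has a hump of 10.7% below and of 10.6% above the RAD21 midpoint, while the other panels have their highest bars next to 0.

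Few sites held more than 1 CTCF peak. There were 50 (0.341%, 95% interval 0.259 to 0.449%), against 33 (0.167%, 0.119 to 0.234%) of the intragenic sites, 9 (0.233%) at gene ends and 0.295% of all autosomal RAD21 peaks with CTCF. None held 3. RAD21 peaks had a median of 647.5 bp at these sites and 193 bp at sites with 1 CTCF peak, and a longer peak has more room for CTCF peaks. With each peak resized to 200 bp the share was 0.0411%. The 2 CTCF midpoints of a site lay 247 to 847 bp apart, with a median of 455.5 bp. The converse, a CTCF peak that reached 2 or more sites, was seen 36 times, with a median CTCF length of 540 bp. In all, 14675 CTCF peaks, or 29.0% of the autosomal list, overlapped an intergenic site.

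The longest RAD21 peaks among the sites mostly spanned 2 CTCF peaks, as 8 of the 10 longest did. The longest, 1160 bp at chromosome 2, 85123118 to 85124277 (mm10), lay 12663 bp from a gene end between 4930443O20Rik and Aplnr, the apelin receptor gene. The next, of 1116 bp, lay at chromosome 9, 120501334 to 120502449, between the translation factor gene Eif1b and the ectonucleotidase gene Entpd3. The third, of 1108 bp, lay at chromosome 12, 104418301 to 104419408, between the protease inhibitor gene Serpina3n and Gm40562. Peaks of 1036, 1012, 981, 971 and 939 bp with 2 CTCF peaks lay beside Otol1, between Hap1 and Jup, between Numbl and Ltbp4, between Tnk2 and Gm34766, and between Sec63 and Scml4. Long RAD21 peaks over a single CTCF peak were the 1005 bp peak between Pck1, a gene of glucose synthesis, and Zbp1, a nucleic acid sensor, and the 934 bp peak between Gm40976 and the cathepsin gene Ctsj. At Ctsj the CTCF peak measured 58 bp.

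The sites were sparser between genes than CTCF-cohesin sites were within them. Intergenic space of 1241 Mb held 11.8 sites per Mb, or 12.0 ± 2.51 over chromosomes (SD, n = 19), against 18.3 ± 2.97 per Mb inside genes. Unsequenced stretches of the assembly were not subtracted, and all densities per Mb of intergenic space are lowered where they lie. Intergenic density exceeded intragenic density on 0 of 19 autosomes. It was lowest on chromosome 3, at 8.62 per Mb, and highest on chromosome 11, at 18.8 per Mb. Over the 19 autosomes it followed the number of genes per Mb (Pearson's r = 0.854, Spearman's rho = 0.923), a description of points that share the same annotation and peak lists. RAD21 peaks without CTCF were also sparser between genes, at 9.79 per Mb, than inside them, at 12.8 per Mb.

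Site density was highest just outside genes and lower at each step away. It was 31.1 per Mb ± 0.883 (counting SE) at 1 to 2 kb from the nearest gene end, 22.5 at 5 to 10 kb, 11.5 at 20 to 50 kb, 3.63 at 100 to 200 kb and 0.924 ± 0.107 beyond 500 kb. RAD21 peaks without CTCF were nearly level close to genes, at 12.4 per Mb at 1 to 2 kb and 12.8 at 10 to 20 kb, and reached 3.61 per Mb beyond 500 kb. The share of these intergenic RAD21 peaks that had CTCF was 71.5% (95% interval 69.3 to 73.6%) at 1 to 2 kb, 50.8% (49.5 to 52.1%) at 20 to 50 kb and 20.4% (16.6 to 24.8%) beyond 500 kb. RAD21 length did not follow this gradient, with medians of 190 bp at 1 to 2 kb, 203 bp at 10 to 20 kb, 200 bp at 100 to 200 kb and 168 bp beyond 500 kb. CTCF length did, with medians of 132, 117, 84 and 77 bp in the same distance classes. The median site lay 11496 bp from a gene end (quartiles 4598 and 29149 bp).

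**Figure D3:**
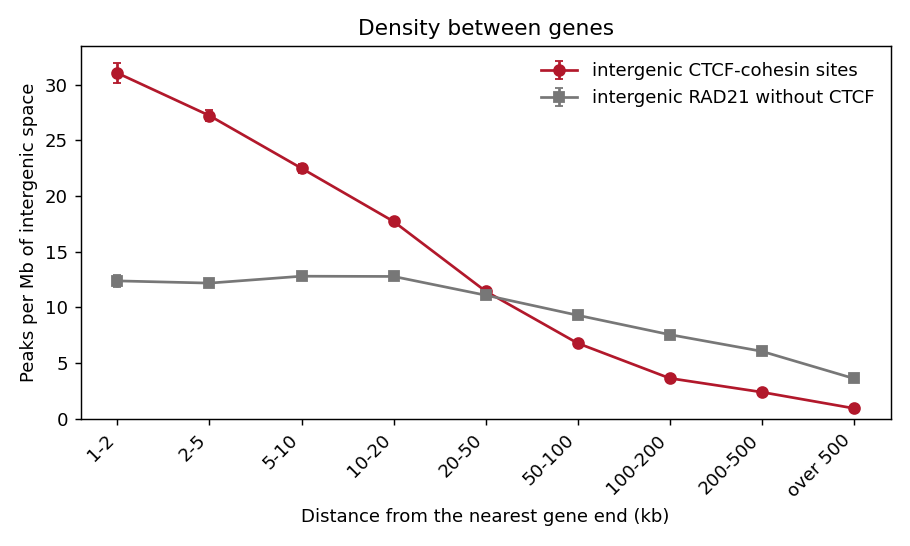
Peaks per Mb of intergenic space (y axis) by distance from the nearest gene end (x axis, kb, unequal classes), for intergenic CTCF-cohesin sites and for intergenic RAD21 peaks without CTCF, with bars of 1 counting SE. The sites start at 31.1 per Mb and cross below the other peaks beyond 50 kb, where they stand at 6.78 against 9.29 per Mb.

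Short distances occur in both short and long intervals between genes, and density differed between these at the same distance. At 1 to 5 kb from a gene end it was 31.7 per Mb in intervals of 10 to 30 kb, 24.6 in those of 30 to 100 kb, 13.3 in those of 100 to 300 kb and 7.82 in those of 300 to 1000 kb. For RAD21 without CTCF the same classes gave 12.5, 12.4, 12.1 and 7.04 per Mb. Intervals over 1000 kb did not continue the fall of the sites, at 10.3 per Mb from 10 sites, against 6.20 from 6 RAD21 peaks without CTCF. Of 20988 intervals over 2 kb, 7863 (37.5%) held a site and 4287 held exactly 1. The share with a site was 6.59% of intervals up to 5 kb and 82.6% (95% interval 74.9 to 88.4%) of the 121 intervals over 1 Mb, where 361 sites lay at 1.79 per Mb. Of those 121 intervals, 21 had no site. They include the interval at chromosome 8, 47107 to 3088990, which held no RAD21 peak without CTCF either. The same held for chromosome 16, 239817 to 3002811, and chromosome 14, 1504712 to 3018444. These intervals lie at the start of a chromosome, where unsequenced stretches were not subtracted, so they may hold little sequence in which a peak could be called. Such intervals are counted among the 121 and the 21, which are therefore not all known to be open intergenic sequence. The site farthest from any gene end, at 1358581 bp, was a 96 bp RAD21 peak at chromosome 3, 43921811 to 43921906, between D3Ertd751e and 2610316D01Rik. The next 4 lay between 1149391 and 1305504 bp away, and 2 of them shared the interval between Nova1, which encodes a neuronal RNA-binding protein, and Gm34304.

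The direction of the flanking genes was examined where both strands were known, in 13836 intervals. Intervals between 2 gene starts held 14.5 sites per Mb, those between a start and an end 11.6 and those between 2 ends 11.0. The shares of intervals with a site were 42.2, 35.1 and 36.9% in that order, so the last 2 classes changed places. Median interval lengths also differed, at 23.7, 20.4 and 17.4 kb. RAD21 without CTCF stood at 10.6, 9.79 and 9.99 per Mb. Within the 3909 intervals over 20 kb that have a start on one side and an end on the other, sites were fewer near the start. From 1 to 10 kb there were 600 near starts and 805 near ends, or 17.1 and 22.9 per Mb, and starts had 42.7% of these sites (95% interval 40.1 to 45.3%). H3K4me3 lies at starts and the rule removes peaks that overlap it. With those peaks kept the numbers were 614 and 829, and the ratio of starts to ends was 0.741 in place of 0.745. Few peaks could return, since the 1 kb next to genes stayed left out. The part of the rule in the difference was not tested. RAD21 peaks without CTCF numbered 389 near starts and 441 near ends, or 46.9% (43.5 to 50.3%) near starts. Their share near starts varied with distance, at 50.5% from 1 to 2 kb, 40.9% (34.9 to 47.2%) from 2 to 5 kb and 49.1% from 5 to 10 kb. The sites had 41.4, 44.8 and 41.7% in the same classes. Sites lay at a median of 29426 bp from the nearest H3K4me3 peak, intragenic sites at 23731 bp and intergenic RAD21 peaks without CTCF at 75050 bp.

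Most sites had no other intergenic site within 10 kb, and a minority came in short runs. The median distance to the next site was 56393.5 bp (quartiles 12437 and 180353 bp, SD over chromosomes 8557 bp), against 36283 bp between intragenic sites and 88971 bp between intergenic RAD21 peaks without CTCF. Of all sites 5547 (37.8%, 95% interval 37.1 to 38.6%) had another within 10 kb, against 38.6% of intragenic sites and 20.5% of the intergenic peaks without CTCF. Linking sites up to 10 kb apart gave 9114 single sites, 1771 groups of 2, 421 of 3 and 169 larger runs of up to 9. These counts leave out RAD21 peaks of other kinds. With RAD21 peaks of any kind counted, the median distance to the nearest was 7689 bp. To the nearest RAD21 peak with CTCF, at any position, it was 11181 bp. Sites with a neighbour at 1 to 5 kb had shorter RAD21 peaks, with a median of 161 bp, than sites whose nearest neighbour lay at 5 to 20 kb (211 bp) or beyond 100 kb (208 bp). The side of RAD21 on which CTCF lay was not shared between neighbours. It was the same in 773 of 1517 consecutive pairs at 1 to 5 kb (51.0%, 48.4 to 53.5%) and in 2602 of 5380 pairs beyond 100 kb (48.4%, 47.0 to 49.7%).

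**Figure D4:**
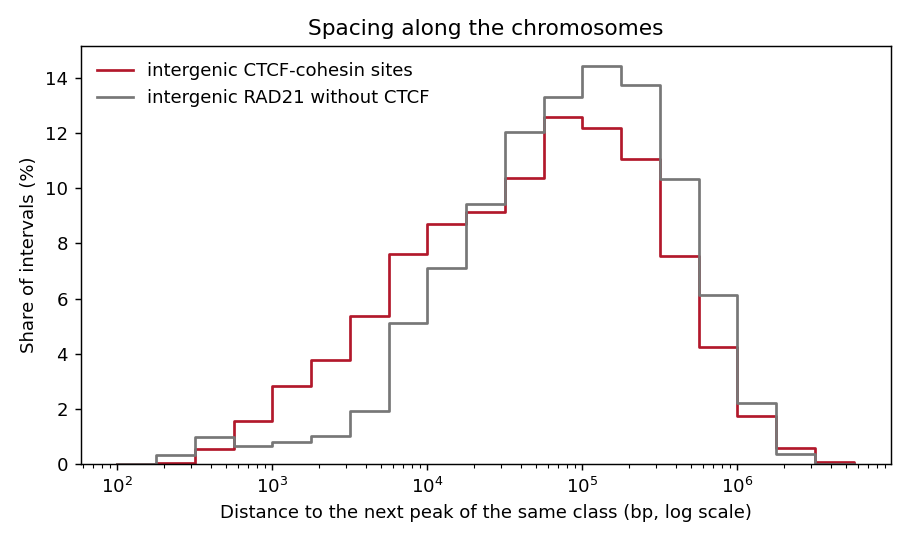
Distance to the next peak of the same class (x axis, bp, log scale) against the share of intervals (y axis, percent), for intergenic CTCF-cohesin sites and for intergenic RAD21 peaks without CTCF. The curve of the sites is higher from about 1 to 10 kb, and its median is 56393.5 bp, against 88971 bp for the peaks without CTCF.

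The longest run had 9 sites in 34926 bp at chromosome 3, 89481663 to 89516588, between Pmvk, a mevalonate pathway gene, and the potassium channel gene Kcnn3. Runs of 8 lay between Gm31781 and the ribosomal protein gene Rpl38 on chromosome 11 and between Gm33738 and Gm38612 on chromosome 5. The most compact of the 5 largest had 7 sites in 6963 bp at chromosome 12, 113216067 to 113223029, between Tmem121 and Adam6b and next to the immunoglobulin heavy chain locus, Igh. Its RAD21 peaks measured 132, 85, 124, 82, 107, 386 and 121 bp from low to high coordinates. In all 7 the CTCF midpoint lay 15 to 30 bp below the RAD21 midpoint. This run was singled out after its values were seen. Among the other runs of 4 or more, all CTCF midpoints lay on 1 side in 21 of 122 runs of 4, 4 of 36 runs of 5, 1 of 7 runs of 6, 0 of 2 runs of 8 and 0 of 1 run of 9. The 50 kb window with the most sites held 10, at chromosome 5, 146891382 to 146940439, around Gm10858 and Gtf3a, which encodes a transcription factor for 5S RNA genes, with RAD21 lengths of 77 to 354 bp.

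Single intervals between annotated genes with many sites were of several kinds. The interval with most, 25 sites in 854 kb, lay between Gm30214 and Gm30392 on chromosome 14 inside the T cell receptor alpha locus, Tcra. The next, 24 sites in 1218 kb, lay between Adam6a and Gm40899 in Igh, and 12 lay in 1338 kb between LOC108169192 and Gm46962 in the kappa light chain locus, Igk. Receptor gene segments were not counted as genes here, so these arrays appear as open intervals. Whole loci held 36 sites at Igh, 31 at Tcra and 28 at Igk, or 13.1, 17.3 and 8.83 per Mb of locus. All intergenic space held 11.8 per Mb, but it is no matched background, since density fell with interval length. The space of a whole locus was also not limited to intergenic space. Over the 121 intervals of the longest class, the median was 1.40 sites per Mb. The Igk and Igh intervals named above belong to that class and held 8.98 and 19.7 per Mb. Igh sites had CTCF below the RAD21 midpoint in 18 and above it in 18. Outside these loci 18 sites lay between Plekhb2 and 1110002O04Rik, and 12 each between Gm32067 and Arrdc3, between Gm42340 and the histone methyltransferase gene Prdm2, and between Gm39198 and the homeobox gene Isx. The last of these filled 2087 kb at 5.76 per Mb.

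The densest of those intervals lay between the T-box genes Tbx3, a regulator of naive pluripotency and limb patterning, and Tbx5, a regulator of heart and forelimb. The 93.2 kb between Tbx3os2 and Gm42017 at chromosome 5, 119691219 to 119784460, held 12 sites and 1 RAD21 peak without CTCF, at 131.5 sites per Mb. From the Tbx3 side the RAD21 peaks measured 71, 113, 112, 83, 308, 210, 303, 170, 217, 133, 205 and 184 bp. CTCF peaks there ranged from 37 bp, at the first site, to 402 bp, at the 170 bp RAD21 peak. Neighbouring midpoints lay between 1619 and 26560 bp apart.

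Most protein-coding genes had a site nearby, and the pluripotency list had the highest share of the gene lists. Of all 20661 autosomal protein-coding genes 76.1% had a site within 100 kb, with a median of 2 sites, while 59.4% had one within 50 kb and 92.1% within 250 kb. Of 25 pluripotency genes 23 had a site within 100 kb (92.0%, median 4 sites). Tbx3 had 12 and Fgf4, a growth factor of the inner cell mass, had 9, while the LIF receptor gene Lifr and Utf1 had none. Olfactory receptor genes stood at the other end, with 513 of 1104 (46.5%, median 0), although Olfr222 had 10 and Olfr159 had 9. Olfr1 had none. Olfr100 had none either, but it was placed at chromosome 17, 80755 to 81681, at the start of the chromosome. Unsequenced stretches were not subtracted, so it may be that no peak could be called there. The lists are counts beside a background and carry no interval and no test. The pluripotency list is small, and members of a gene array share sites.

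The remaining lists lay nearer to that background. Ribosomal protein genes had sites at 64 of 76 (84.2%), with 11 near Rpl21, 9 near Rpl14 and none near Rpl18 or Rpl22. Immediate early genes, which answer growth signals within minutes, had them at 13 of 16 (81.3%), with 7 near Nr4a1, 6 near Fos and none near Egr2 or Junb. Developmental regulators with distal enhancers had them at 23 of 30 (76.7%), with 11 near Tbx5 and none near Irx3. Imprinted genes had them at 23 of 32 (71.9%), with 5 each near Dlk1 and Nnat and none near Igf2r or Kcnq1ot1. Genes of cohesin and CTCF had them at 8 of 12 (66.7%), with 4 each near the acetyltransferase gene Esco2 and the cohesin regulator gene Pds5a and none near Ctcf itself or Esco1.

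Several developmental genes had a site directly beyond the 1 kb limit. At Epha4, an ephrin receptor gene whose domain borders are a textbook case of insulation, a 445 bp RAD21 peak lay 1.3 kb upstream of the start at chromosome 1, 77516202 to 77516646. At Kcnj2, a potassium channel gene, a 187 bp peak lay 1.3 kb upstream, and at Sox9, a regulator of cartilage and testis, a 255 bp peak lay 2.2 kb from the gene. At Myc, a growth regulator, and Bmp2, a secreted morphogen, peaks of 164 and 201 bp lay 1.9 and 1.8 kb away. Shh, another morphogen gene, had a 370 bp peak 5.5 kb away, and Pitx1 had a 183 bp peak 7.7 kb away. In the Hox clusters, which pattern the body axis, the nearest sites lay 1.6 kb downstream of Hoxd13 (310 bp, between Hoxd13 and Hoxd12) and 1.6 kb downstream of Hoxa13 (328 bp, between Hoxa11os and Hoxa13).

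The core pluripotency genes differed among themselves. Nanog had a 269 bp site 5.6 kb downstream and 9 sites within 100 kb. Pou5f1, which encodes Oct4, had 9 within 100 kb too, but the nearest, of 481 bp, lay 21.6 kb upstream. Esrrb had 6, with the nearest at 16.8 kb, while Sox2 and Klf4 had 3 each, with the nearest at 35.8 and 49.0 kb. The nearest sites of Pax3 and Irx3 lay 70.6 and 120.7 kb away. At Igf2, an imprinted growth factor gene, a 154 bp site lay 5.5 kb upstream of the start. The nearest site to H19, its imprinted neighbour, lay 53.0 kb away. Closer to H19, at 2.3 kb, a 779 bp RAD21 peak with 2 CTCF peaks lay at chromosome 7, 142580042 to 142580820, but it overlapped H3K4me3 and so was no site.

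Annotated small RNA genes between protein-coding and lncRNA genes were also compared with the sites. Of 490 intergenic snoRNA annotations 45 overlapped a site (9.18%, 95% interval 6.93 to 12.1%), against 1 of 501 snRNA, 0 of 195 miRNA and 6 of 203 tRNA annotations. All 45 were 122 to 144 bp long. In the class of 120 to 149 bp, whose limits were chosen after these lengths were seen, 45 of 448 held a site (10.0%, 7.59 to 13.2%), against 0 of 42 intergenic snoRNA annotations of other lengths, which allows a share of up to 7.14% by a floor of 3 counts and 8.38% by the Wilson interval. The Wilson interval overlaps that of the class. Over all positions CTCF overlapped 84 of 1286 snoRNA annotations (6.53%), of which 83 were in that length class. The sites lay on 16 chromosomes and had a median RAD21 length of 203 bp.

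The place of CTCF within these snoRNA annotations was described next. Of 43 CTCF peaks that lay at both a site and a snoRNA annotation of this class, the median midpoint lay 40 bp inside the nearer end (quartiles 23 and 48.5 bp), and 32 of the 43 lay 20 to 60 bp inside it. For 40 CTCF peaks at such annotations elsewhere the median was 41.5 bp, and 32 lay in the same range. The annotations at sites had a median length of 132 bp, so a midpoint inside can lie at most about 66 bp from the nearer end, and an even spread would give a median of 33 bp with 60.6% at 20 to 60 bp. The observed share at sites was 74.4%, with a 95% interval of 59.8 to 85.1% that includes the even share. Measured from the lower-coordinate end the peaks formed 2 humps, around 40 to 60 bp and around 80 to 100 bp. The strand of the annotations was not used here. How reads that map to several places were treated is not given in the sources used here, and the part of such reads in these counts was not tested. Whether the 45 annotations, or those elsewhere, are copies of a common sequence was not tested either. If they are, they are not independent, and the intervals are too narrow.

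**Figure D5:**
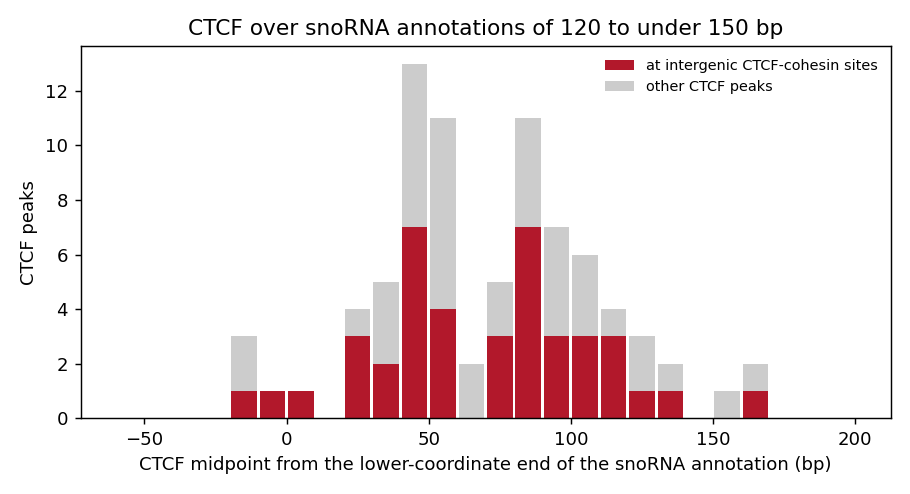
Number of CTCF peaks (y axis) by the position of their midpoint from the lower-coordinate end of the snoRNA annotation (x axis, bp) for annotations of 120 to 149 bp, stacked for peaks at intergenic CTCF-cohesin sites and other CTCF peaks. Both kinds pile up near 40 to 60 bp and near 80 to 100 bp, with few at the centre.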

How the data were processed

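ChIP-exo peaks of RAD21, CTCF and H3K4me3 were used as the authors deposited them. Each line gives a position only (unit: other), from which the length in bp was computed. Per the submitters' processing notes the build was mm10 and the tools, with no role stated, were MACS2, bedtools 2.30.0, Picard 2.27.4 and Bowtie2 2.4.5. Thresholds and controls were not given in the sources used here. Per the labels the union of CTCF peaks belongs to the second CTCF library. Peaks of the first alone were not analysed here.

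RefSeq's annotation of GRCm38.p6 supplied 20661 protein-coding genes and 12408 lncRNA genes on 19 autosomes. Strands of 25747 genes came from RefSeq's promoter table, which held none on chromosome 18. Overlaps, distances and gaps were computed with pandas 2.3.3, numpy 2.4.6 and scipy 1.17.1 under Python 3.11.15, drawn with matplotlib 3.10.9, checked against bedtools 2.31.1 and tested on simulated peaks. Differences were taken between chromosome medians. Density used the space more than 1 kb from gene ends between the outermost genes, which left out 5 sites.

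The sites, gene lists and comparisons were chosen with earlier results of these data known. Genes and sites were named by rule: the 10 longest sites, the 10 gaps with most sites, the 3 densest 50 kb windows, the 5 farthest sites, the 3 with most CTCF peaks, those at the 1 kb limit, the site nearest to each of a list of landmark genes, and for each gene list the 2 members with most sites and the first 2 in alphabetical order with none. Some genes that this rule selects are not reported here. Runs of sites were named outside this rule, after their values were seen. Alternatives varied the overlap, the peaks kept, the distance from genes, the genes used, the chromosomes and the peak width.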

Additional observations from a re-analysis of the deposited data

Results flagged for a closer look

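The X chromosome lay outside the rule and was used in none of the comparisons above. There 478 RAD21 peaks, of 1893 on X, met every other condition for an intergenic CTCF-cohesin site. Their median RAD21 length was 173 bp, and the median distance to the next was 105239 bp. No control list was available to set a background for this count.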

How the results depend on the processing

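Of 83 values recomputed under alternatives, 74 moved by less than the spread over chromosomes, the counting interval or 1.5 times, and none changed direction. Keeping only RAD21 and CTCF peaks longer than their list's median left 6392 sites, with a midpoint distance of 45 bp and 157960 bp to the next site. Requiring more than 5 kb from a gene end gave 78914 bp to the next site and 18354 bp to the nearest gene end. With protein-coding genes only, these distances were 42898 and 19369 bp. With peaks resized to 200 bp, the share of sites with 2 or more CTCF peaks was 0.0411%. The next RAD21 peak of any kind lay at 14621 bp. Keeping fewer sites, setting a larger minimum distance, using fewer genes or counting all RAD21 peaks changes these distances by construction. The cause of the other shifts was not tested. The difference in RAD21 length between intergenic and intragenic sites ranged from 12.8 to 22.3 bp over the alternatives. No paired analysis was possible because each antibody had 1 list and the CTCF replicates came as a union. The planned counts of the CTCF core pattern were not run, since they need a genome. Depth was unknown, so the absence of a peak means no more than that no call was made.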
